A study of Mus musculus with 55 samples.

Results

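Ucn3, Trpm5, Cib3, T2 and Cyp4f39 are 5 of the 47937 genes counted in bulk RNA-seq of mouse islets. They were selected on their large fall in read counts at 25 weeks of age in islets whose β cells lack Eed, against wild type, so that difference is described with no test. The series holds 16 RNA-seq libraries of whole islets from C57B6/J male mice, with a chromatin-state map of wild-type islets. The groups were wild type (WT, 3 libraries), Eed heterozygotes (HET, 3) and βEedKO (Eed -/-, 3) at 8 weeks, and WT (3), HET (2) and βEedKO (2) at 25 weeks. In βEedKO, a rat insulin promoter-driven Cre (RIP-cre) deletes floxed Eed in insulin-expressing cells, and the α, δ and other cells of the islet keep the gene. Libraries came from islets of single animals or small pools, and the βEedKO libraries at 25 weeks from larger pools. The study's methods give culture of isolated islets in general and, for RNA, direct lysis of purified islets.

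EED is a core subunit of Polycomb repressive complex 2, which places the repressive mark H3K27me3 on chromatin. Ucn3 encodes urocortin 3, a peptide of the corticotropin-releasing factor (CRF) family that mouse β cells release together with insulin and that acts on CRHR2 receptors of δ cells to raise somatostatin secretion. It appears late in β cell development and is used as a marker of mature β cells. Trpm5 encodes a calcium-activated cation channel of taste cells, tuft cells and β cells, where it adds to glucose-stimulated electrical activity. Cib3 encodes a calcium- and integrin-binding protein whose family takes part in mechanotransduction in hair cells. Cyp4f39 encodes a fatty acid ω-hydroxylase of the acylceramide pathway of skin. T2 is annotated as brachyury 2 and lies next to T, the Brachyury gene.

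On GRCm38, Ucn3 (ENSMUSG00000044988) lies on chromosome 13 from 3940688 to 3945349, minus strand. Trpm5 (ENSMUSG00000009246) lies on chromosome 7 from 143069153 to 143094642, minus strand. Cib3 (ENSMUSG00000074240) lies on chromosome 8 from 72204335 to 72212837, minus strand. T2 (ENSMUSG00000058159) lies on chromosome 17 from 8355992 to 8423513, plus strand. Cyp4f39 (ENSMUSG00000061126) lies on the plus strand of chromosome 17 from 32452723 to 32493320. Trpm5 shares 220 bp of exon with Tssc4 on the opposite strand, 3.44% of its exonic length, and T2 shares 75 bp with Gm16702, 2.62%. T2 also shares 516 bp, 18.03%, with AC164431.1 on the same strand, which is not among the genes counted. The library kit does not mark strand, so reads from these stretches cannot be told apart.

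The start site of each gene was placed in the state map, so the 250 bases upstream of the start are shown for the 4 genes that RefSeq's promoter table on GRCm38.p6 holds. The windows are chr13:3945350-3945599 on the minus strand for Ucn3, chr7:143094643-143094892 on the minus strand for Trpm5, chr8:72212838-72213087 on the minus strand for Cib3 and chr17:32452473-32452722 on the plus strand for Cyp4f39. Each sequence runs 5′ to 3′ and ends at the base before the annotated start. Whether transcription in islets begins there was not tested, and a window may hold exon of another transcript. Capitals mark matches to CATCTG, an E-box of the NEUROD1 type, on either strand.
Ucn3: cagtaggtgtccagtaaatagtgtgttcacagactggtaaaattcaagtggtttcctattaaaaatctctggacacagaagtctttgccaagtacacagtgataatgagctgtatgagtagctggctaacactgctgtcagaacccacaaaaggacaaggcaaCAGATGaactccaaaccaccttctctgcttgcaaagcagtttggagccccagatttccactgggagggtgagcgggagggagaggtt
Trpm5: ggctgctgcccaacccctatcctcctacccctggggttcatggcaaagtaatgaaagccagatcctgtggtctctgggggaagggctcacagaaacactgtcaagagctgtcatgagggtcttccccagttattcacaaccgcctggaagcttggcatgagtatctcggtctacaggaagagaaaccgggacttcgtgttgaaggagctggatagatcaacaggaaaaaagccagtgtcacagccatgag
Cib3: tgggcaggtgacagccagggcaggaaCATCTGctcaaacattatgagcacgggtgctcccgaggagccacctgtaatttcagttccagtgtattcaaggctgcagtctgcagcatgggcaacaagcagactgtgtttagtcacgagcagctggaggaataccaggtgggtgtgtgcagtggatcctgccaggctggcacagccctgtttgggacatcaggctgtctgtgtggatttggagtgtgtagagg
Cyp4f39: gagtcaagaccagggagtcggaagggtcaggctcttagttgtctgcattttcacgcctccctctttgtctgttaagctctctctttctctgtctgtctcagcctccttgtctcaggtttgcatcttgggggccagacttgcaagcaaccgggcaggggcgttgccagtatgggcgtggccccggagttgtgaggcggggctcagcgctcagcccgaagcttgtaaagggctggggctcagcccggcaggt
CATCTG was present in the windows of Ucn3, at -87 to -82 on the opposite strand, and of Cib3, at -224 to -219. The 4 genes and all 32851 promoters were searched alike from 250 bases before to 50 after the start, and 17.2% of promoters hold it there, or 14.4% in the upstream bases alone. None of the 4 genes had TATAAA (13.6% of promoters), TAATTA (5.29%), TGCTGA (19.5%), GTAAACA (3.65%) or TGACGTCA (1.79%) on either strand. The 250 bases of Ucn3 had 46.4% GC and 1 CpG, those of Trpm5 52.8% and 4, those of Cib3 55.2% and 3, and those of Cyp4f39 59.6% and 10. The median over all promoters was 52.4% GC and 6 CpG. These are matches of letters and show no binding.

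The 5 start sites lay in different chromatin states of wild-type islets. The states are letters that the authors' segmentation gave to bins of 200 bp from histone marks and DNA methylation, with replicates averaged. States A to J are active, K to M bivalent (active and Polycomb marks together), N to R Polycomb-repressed or mixed, and S to X heterochromatin, repeats or quiescent. The start of Ucn3 lay in state B, an active start site state that held 12.239% of the 25640 genes with a state, and that of Cib3 in state C, an active flank state (1.685%). The start of Trpm5 lay in the bivalent state K (2.976%), that of Cyp4f39 in the bivalent state L (11.334%), and that of T2 in the Polycomb state O (7.246%). Within 1 kb on either side of the start, active states covered 100% of the window at Ucn3 and Cib3. Bivalent states covered 93.9% at Cyp4f39, and Polycomb states covered 80.0% at Trpm5 and 100% at T2.

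**Figure D1:**
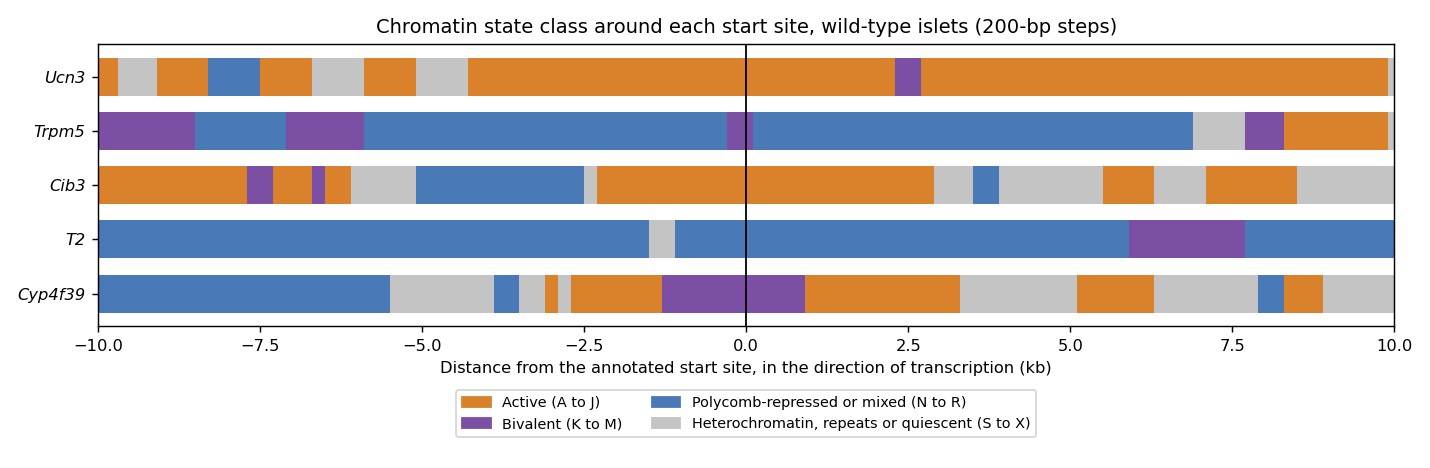
Class of chromatin state in wild-type islets by distance from each gene's annotated start (x axis, kb in the direction of transcription, 200-bp steps), 1 row per gene. Ucn3 and Cib3 have active states across the start, Cyp4f39 bivalent states, and Trpm5 and T2 mostly Polycomb states, with a short bivalent stretch at the start of Trpm5.

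Away from the start, the gene bodies also differed from each other. Active states covered 91.5% of the body of Ucn3, 74.7% of Cyp4f39, 61.5% of Trpm5, 59.3% of Cib3 and 13.1% of T2. State C led in the body of Trpm5 (27.5%), ahead of the Polycomb state O (26.7%). A start in K with C leading in the body was found for 2 of the 25640 genes. Each part is rare by itself, at 2.976% of starts and 0.472% of bodies. The leading state in the body of T2 was O (38.5%), the same letter as its start, a pair shared by 4.384% of genes. The longer genes have further annotated starts. A coding transcript of T2 starts 16.4 kb downstream in the bivalent state L. A coding transcript of Cyp4f39 starts 15.7 kb downstream in the active state I, and short Trpm5 transcripts start about 20.1 kb downstream in state C. With every annotated start counted, 4 of the 5 genes had a start in an active state, against 2 with the outermost start. The added starts lie inside gene bodies, some of them of retained introns, so an active state there need not mark a promoter. The share of all genes was not computed for this count.

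In wild-type islets at 8 weeks all 5 genes were expressed. Levels are CPM, counts scaled to library size with TMM factors, and levels of different genes are compared per kb of exon. Ucn3 had 165 ± 52.0 CPM per kb (SD, n = 3), Trpm5 12.8 ± 3.61, Cib3 9.69 ± 1.5, T2 6.14 ± 2.76 and Cyp4f39 1.55 ± 0.846. Ucn3 stood above all others and Cyp4f39 below them in every library, while neighbours among Trpm5, Cib3 and T2 overlapped. This order held in all 6 groups except in βEedKO at 25 weeks, where T2 was above Cib3. Of the 3138 genes with a start in state B, 5 had more than Ucn3 per kb. Among the 1858 genes with a start in the Polycomb state O, whose median was 0.0208 CPM per kb, 107 had more than T2. Among the 763 genes of the bivalent state K, with a median of 0.137, 31 had more than Trpm5. Cib3 was above 71.3% of the genes of state C, and Cyp4f39 above 70.2% of those of state L. The level of T2 was thus far above the median of genes that share its start state, although only 1 of its starts was used here. Part of its exonic length, 18.03%, is shared with AC164431.1, whose reads cannot be separated.

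At 25 weeks all 5 genes were nearly absent from βEedKO islets. These are the values that chose the genes, and they support nothing further. Ucn3 had 11.4 and 10.1 CPM in the 2 βEedKO libraries, against 447, 399 and 346 in WT and 351 and 474 in HET. Its βEedKO mean was 2.70% of the WT mean. The groups were far apart, and WT and HET overlapped.

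Trpm5 had 1.82 and 3.51 CPM in βEedKO, against 179, 105 and 94.7 in WT and 90.0 and 112 in HET, and the βEedKO mean was 2.12% of WT. T2 had 0.532 and 0.524 CPM in βEedKO, against 44.7, 24.0 and 22.8 in WT and 26.4 and 20.1 in HET, which left 1.73%. WT replicate 2, the library with the lowest total count, was the highest WT library for Ucn3, Trpm5, Cib3 and T2.

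Cib3 had 0.304 and 0.282 CPM in βEedKO, from 4 and 7 reads, with exact 95% Poisson intervals of 0.0829 to 0.779 and 0.114 to 0.582 CPM. Its levels were 45.5, 22.2 and 20.2 CPM in WT and 19.7 and 35.6 in HET, so the βEedKO mean was 1.00% of WT. Cyp4f39 had 0.152 and 0.363 CPM in βEedKO, from 2 and 9 reads (intervals 0.0184 to 0.549 and 0.166 to 0.689). It had 8.71, 14.4 and 11.8 CPM in WT and 14.0 and 12.2 in HET, and the βEedKO mean was 2.21% of WT. The intervals cover counting error only.

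**Figure D2:**
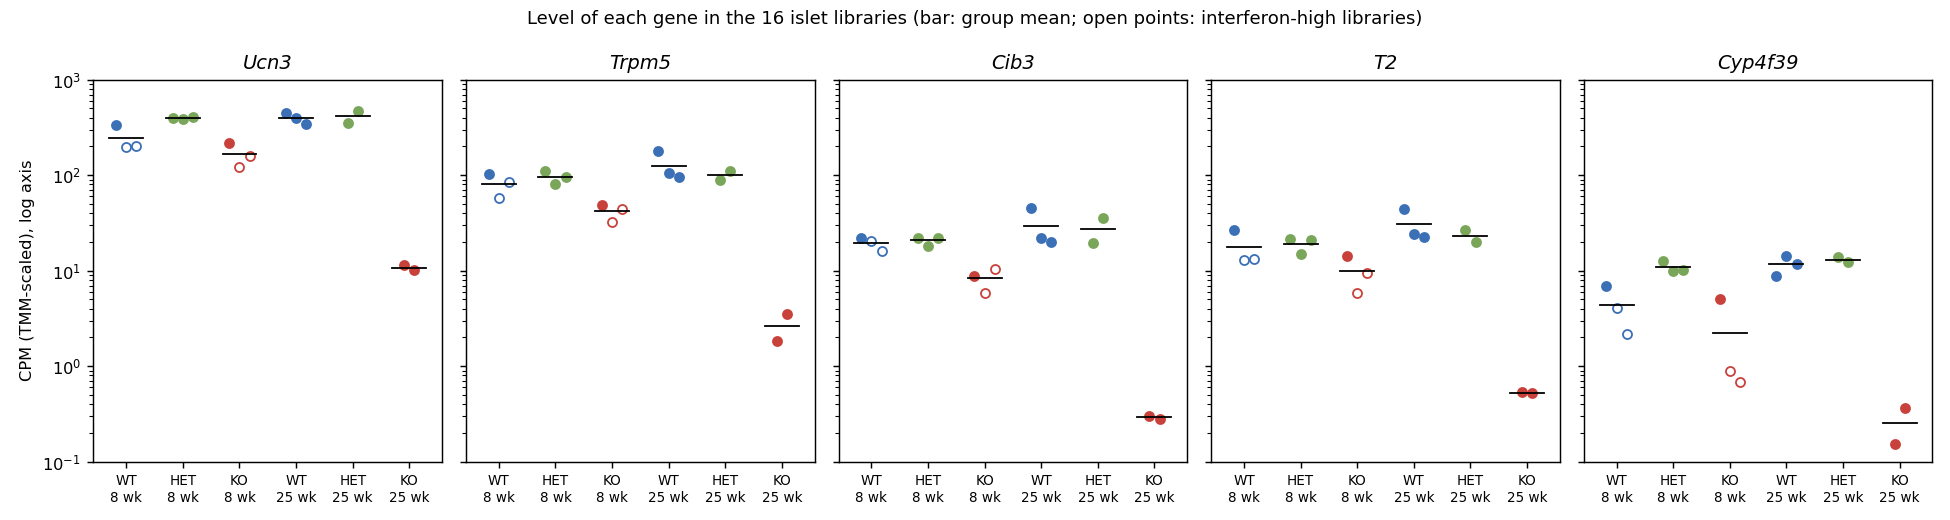
CPM (log axis) of the 5 genes in each of the 16 libraries by group, with the group mean as a bar, and open points for the 4 libraries at 8 weeks with high interferon-induced genes. The βEedKO libraries at 25 weeks lie far below the others for each gene, and those at 8 weeks lie near the lower end of the controls or under them.

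On the log2 scale of the edgeR fit, the difference of βEedKO from WT at 25 weeks was -5.26 (SE 0.39) for Ucn3, -5.59 (0.48) for Trpm5, -6.66 (0.54) for Cib3, -5.88 (0.61) for T2 and -5.44 (1.03) for Cyp4f39. Against HET, which shares the βEedKO libraries, it was -5.26, -5.21, -6.53, -5.44 and -5.54 in the same order. All βEedKO libraries lay below all WT libraries for 5 of the 5 genes, beside 15.9% of all genes tested. Over all 18685 genes, 2.02% were called lower and 4.58% higher at an adjusted p under 0.05. In bulk islets, fewer β cells and less RNA per β cell cannot be told apart.

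Most of the distance in βEedKO lay between 8 and 25 weeks. The log2 difference between the ages in βEedKO was -4.00 (SE 0.37) for Ucn3, -4.00 (0.44) for Trpm5, -4.85 (0.51) for Cib3, -4.25 (0.57) for T2 and -3.05 (0.95) for Cyp4f39. In WT it was 0.72, 0.63, 0.59, 0.80 and 1.42, with SEs of 0.27, 0.32, 0.33, 0.40 and 0.70. These values share the 25-week libraries that chose the genes and have no test. The difference that chose the genes holds no HET library, but earlier results of these data were known. From 8 to 25 weeks in HET the log2 differences were 0.05 (SE 0.28) for Ucn3, 0.08 (0.33) for Trpm5, 0.42 (0.35) for Cib3, 0.29 (0.41) for T2 and 0.27 (0.66) for Cyp4f39. None of the 5 was called by edgeR's quasi-likelihood test, none had an unadjusted p under 0.05, and DESeq2 called none of them. Over all genes 0% were called higher.

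At 8 weeks every gene had a lower mean in βEedKO than in WT, and none passed the test. The genes were chosen for a late fall with earlier results of these data known, so this comparison is not independent of that choice. Cib3 had 8.82, 5.86 and 10.4 CPM in βEedKO against 22.0, 20.4 and 16.1 in WT. The groups did not overlap, and the log2 difference was -1.22 (SE 0.34, edgeR quasi-likelihood adjusted p = 0.244). Trpm5 had 49.0, 32.5 and 43.9 CPM against 103, 57.3 and 84.4. These groups did not overlap either, and the difference was -0.96 (SE 0.33, adjusted p = 0.424).

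Ucn3 had 218, 122 and 159 CPM in βEedKO at 8 weeks and 332, 198 and 200 in WT, so that the highest βEedKO library passed both lower WT libraries. Its log2 difference was -0.54 (SE 0.27, adjusted p = 0.689 in the same test). T2 had 14.3, 5.91 and 9.43 CPM against 26.7, 12.8 and 13.3, with overlap, a difference of -0.82 (SE 0.40) and an adjusted p = 0.669. Cyp4f39 had 5.07, 0.902 and 0.692 CPM against 6.97, 4.12 and 2.17, with overlap. It differed by -0.97 (SE 0.70, adjusted p = 0.832).

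Of the 5 genes 0 were called by edgeR, 2 had an unadjusted p under 0.05 (2.02% of all genes did and were lower), and DESeq2 called 0. Over all genes tested 0.00535% were called lower at 8 weeks and 0.428% higher. The 2 genes without overlap stand beside 4.86% of all genes whose βEedKO libraries all lay below WT. The log2 difference was negative for each of the 5 genes under every setting run (-0.29 at most). With HET pooled with WT as the control, Cib3 (adjusted p = 0.0229) and Trpm5 (adjusted p = 0.0423) were called lower, beside 0.382% of genes in that fit, and over the 19 other settings of the fit the adjusted p for these 2 genes ranged up to 0.625 and 0.902.

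Genes induced by interferon moved with some of these libraries. The summed level of 8 such genes (Ifit1, Ifit3, Isg15, Irf7, Usp18, Rsad2, Oas2 and Mx1, picked after the data were seen) was 3080 and 3290 CPM in WT replicates 3 and 4 and 4100 and 4510 in βEedKO replicates 4 and 5. It was 51.4 to 119 CPM in each of the other 12 libraries, all HET libraries included. Within both sets of libraries at 8 weeks every gene was lower in βEedKO than in WT. Among the low libraries, 1 of each genotype, Ucn3 in βEedKO was 65.5% of WT, Trpm5 47.5%, Cib3 40.1%, T2 53.7% and Cyp4f39 72.8%. Among the high ones, 2 of each genotype, the shares were 70.7%, 53.9%, 44.5%, 58.9% and 25.3%. Of all genes tested, 17.1% were lower in βEedKO within both sets. With the interferon level as a term in the fit, the log2 difference was -0.54 (SE 0.17) for Ucn3, -0.95 (0.30) for Trpm5, -1.22 (0.33) for Cib3, -0.81 (0.28) for T2 and -1.40 (0.44) for Cyp4f39, and the lowest adjusted p of the 5 was 0.161.

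**Figure D3:**
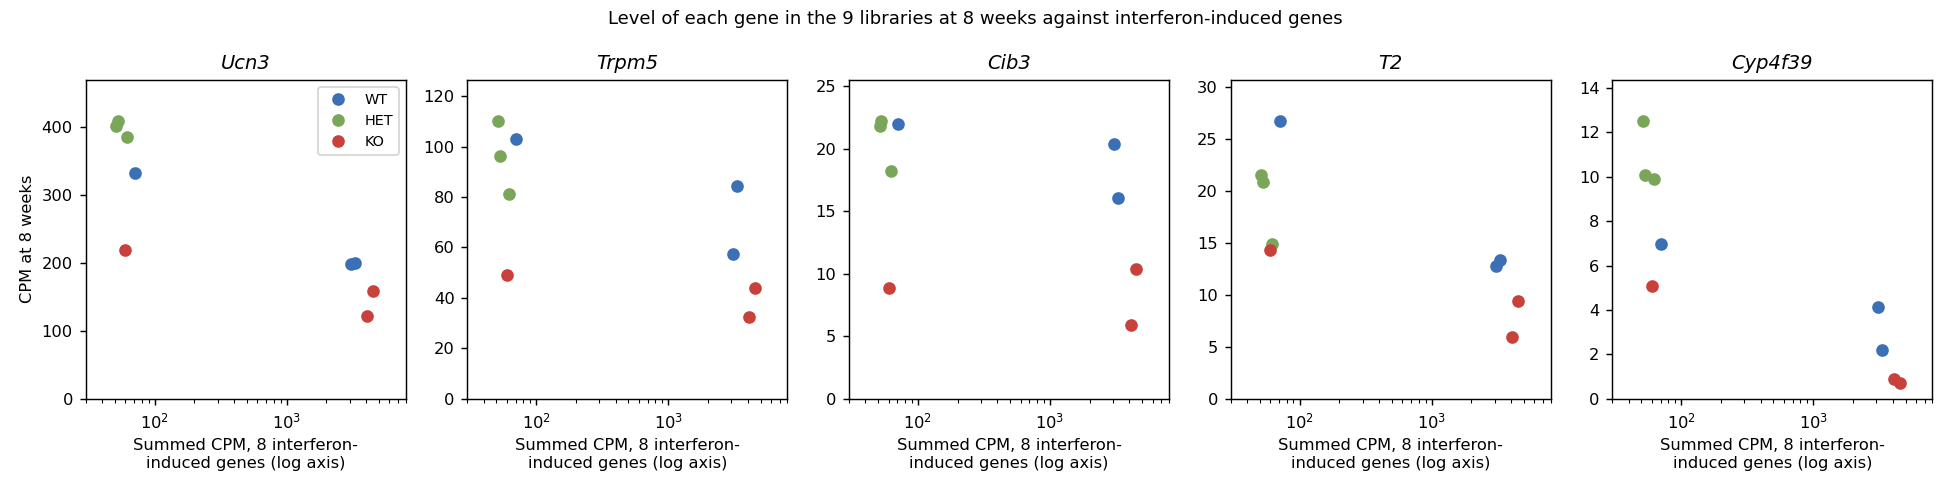
CPM of each gene (y axis from 0) in the 9 libraries at 8 weeks against the summed CPM of 8 interferon-induced genes (log axis), coloured by genotype. The βEedKO points lie below the WT points at either end of the axis for each gene, and no HET library lies at the high end.

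Against HET at 8 weeks, Ucn3, Trpm5 and Cib3 were called lower in βEedKO. Ucn3 had 401, 385 and 408 CPM in HET, Trpm5 110, 81.0 and 96.3, and Cib3 21.8, 18.2 and 22.2, each above all βEedKO libraries. The log2 difference of βEedKO from HET was -1.26 (SE 0.25, adjusted p = 0.0191, edgeR's quasi-likelihood test) for Ucn3. It was -1.20 (SE 0.30, adjusted p = 0.0417) for Trpm5 and -1.31 (SE 0.33, adjusted p = 0.0402) for Cib3.

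T2 had 21.5, 14.9 and 20.9 CPM in HET and Cyp4f39 12.5, 9.89 and 10.1, again above βEedKO, but neither passed the test. The log2 difference was -0.95 (SE 0.37, adjusted p = 0.144) for T2 and -2.25 (SE 0.63, adjusted p = 0.0557) for Cyp4f39. All 5 genes lay below HET without overlap, beside 14.5% of all genes. The 3 called lower stand beside 1.14% of genes called lower, and DESeq2 called 4 of the 5 beside 4% of its genes. The comparison shares the βEedKO libraries with the comparison to WT. HET held no library with high interferon-induced genes. With the interferon level as a term, Ucn3 kept its call (log2 difference -0.83, adjusted p = 0.0486), and Trpm5 (-0.90, adjusted p = 0.177) and Cib3 (-1.18, adjusted p = 0.143) did not. None of the 3 calls held without any 1 of the 3 HET libraries, without βEedKO replicate 4 or 5, or with library size as the only scaling, where adjusted p ran from 0.0564 to 0.173 (0.0749 for Ucn3 with library size alone). With the replicate number as a block, adjusted p was 0.379 for Ucn3, 0.39 for Trpm5 and 0.325 for Cib3.

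HET and WT at 8 weeks were compared in the same fit. Ucn3 was higher in every HET library than in every WT library, with a log2 difference of 0.71 (SE 0.25) and an adjusted p = 0.264. Cyp4f39 was also separate, at 1.29 (SE 0.61, adjusted p = 0.346). Trpm5, Cib3 and T2 overlapped, with log2 differences of 0.23, 0.09 and 0.12. edgeR called none of the 5, 1 had an unadjusted p under 0.05 (6.25% of all genes did and were higher) and DESeq2 called none. The 2 genes without overlap stand beside 10.3% of all genes, and 0% of genes were called higher. With the interferon term the differences of Ucn3 and Cyp4f39 were 0.30 and 0.11. At 25 weeks, with no test, HET differed from WT by 0.05 for Ucn3, -0.32 for Trpm5, -0.07 for Cib3, -0.38 for T2 and 0.16 for Cyp4f39.

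**Figure D4:**
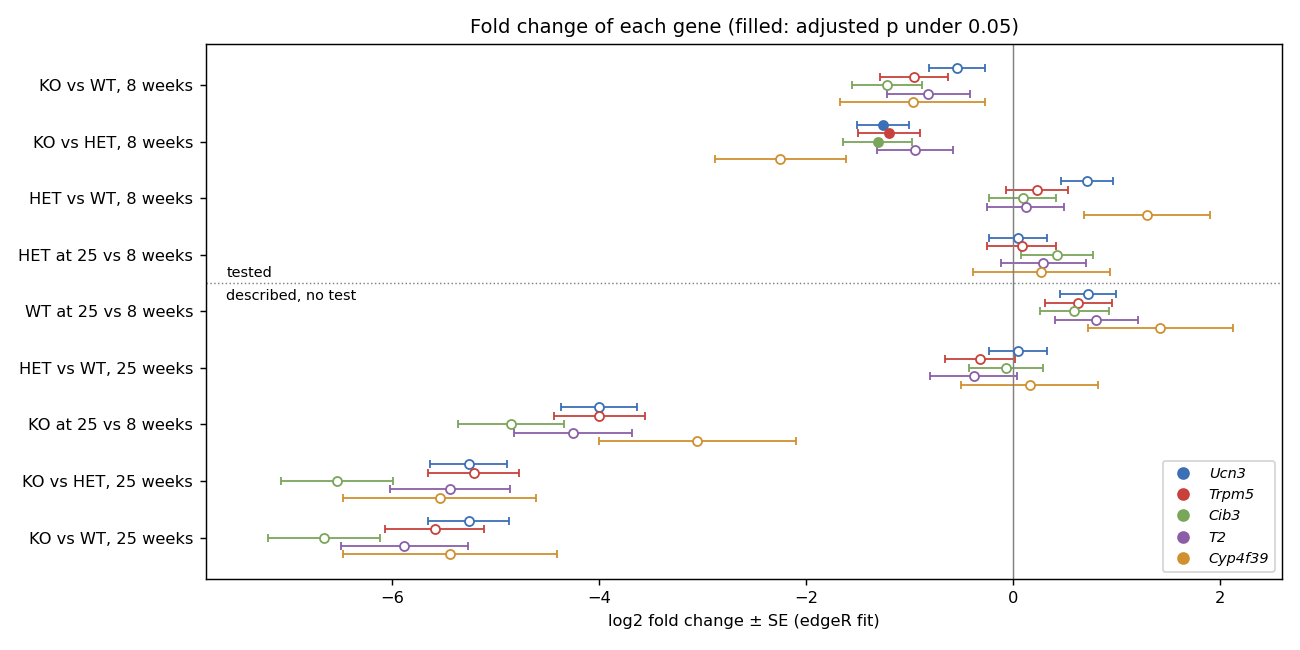
Log2 fold change (x axis, ± SE) of the 5 genes in 9 comparisons (rows), with those tested above the dotted line and those described with no test below it; filled points passed an adjusted p of 0.05. The largest falls, -5.21 to -6.66, are those of βEedKO at 25 weeks, and the 3 filled points are Ucn3, Trpm5 and Cib3 in βEedKO against HET at 8 weeks.

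Genes that mark mature β cells were also lower at 25 weeks. Of 12 listed genes, 9 were called lower in βEedKO against WT, among them Ins1 (-3.85, SE 0.76, adjusted p = 0.0141), the islet zinc transporter gene Slc30a8 (-3.38, SE 0.36, adjusted p = 0.000715) and the transcription factor genes Mafa (-3.76, adjusted p = 0.0206) and Nkx6-1 (-3.48, adjusted p = 0.00637). Ins2 (-3.42, adjusted p = 0.0626) did not pass. Ins1, Iapp and Mafa lost their calls without either βEedKO library at 25 weeks, and the calls over all lists, 24 in all, came to 9 without βEedKO replicate 2 and 11 without replicate 3. The median of the list was -3.28, beside 0.03 over all genes. Of the 10 pan-endocrine genes 5 were called lower and the granin gene Chgb was called higher, with a median of -1.39. At 8 weeks, 0 of the 12 and 0 of the 10 were called, with medians of -0.48 and -0.06, and Ins1 differed by -0.14 (SE 0.57, adjusted p = 0.984).

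The summed level of the 12 β cell genes was 14200 to 17700 CPM in βEedKO at 25 weeks and 124000 to 221000 in WT, while the pan-endocrine sum was 26000 to 32700 against 22400 to 29700. Without Chgb, which had a mean of 9900 CPM against 1030, the pan-endocrine sum was 18100 to 20800 against 21500 to 28500. The sum of 5 acinar genes, all detected, ran from 5990 to 224000 CPM in βEedKO and from 17600 to 124000 in WT at 25 weeks, so that acinar RNA took a very different share of the 2 βEedKO libraries. The sum of 5 α cell genes was 11400 to 12000 CPM against 7690 to 8880, that of 3 δ cell genes 1230 to 1360 against 1160 to 2080, and Ppy, the marker of PP cells, was 2240 to 4320 against 709 to 2400. The sum of 4 duct genes was 530 to 596 against 219 to 283, with Spp1 higher (a mean of 391 against 47.5) and Krt7 lower (114 against 191). The sum of 3 endothelial genes was 153 to 190 against 144 to 186, of 3 macrophage genes 36.0 to 75.4 against 24.4 to 27.1, and of 3 mesenchymal genes 90.8 to 110 against 41.0 to 56.2. The part of these cell types in the results was not tested. Trpm5 is also known from tuft cells, whose 6 markers summed to 1.40 to 8.50 CPM over all groups, with Pou2f3, Gfi1b, Il25 and Sh2d6 under 1 CPM in every library.

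**Figure D5:**
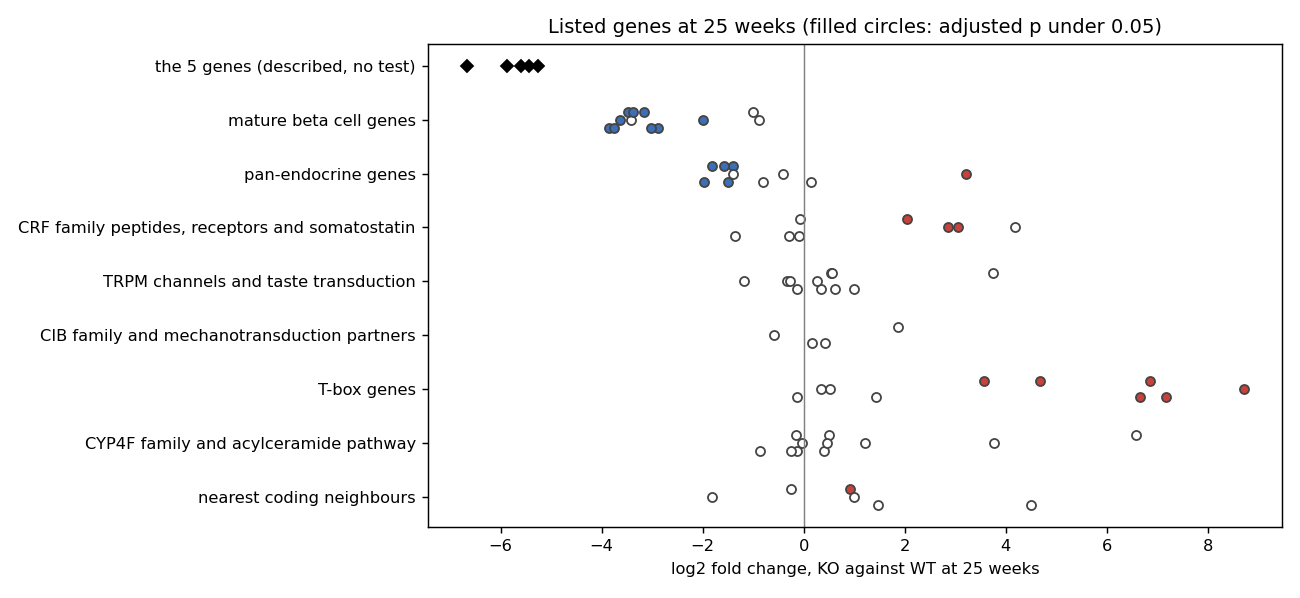
Log2 fold change (x axis) in βEedKO against WT at 25 weeks of the 5 genes (diamonds, not tested) and of the tested genes of each list (circles, filled where the adjusted p was under 0.05). The 5 genes, chosen on this difference, lie from -5.26 to -6.66, and T-box genes make up most of the filled points on the right.

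Among the listed genes of the CRF family and of somatostatin, Crhr2 rose at 25 weeks and Crhr1 at 8 weeks. Sst did not pass the test at either age. Crhr2, the receptor for urocortin 3, had 6.69 and 8.63 CPM in βEedKO at 25 weeks and 1.09, 0.752 and 1.24 in WT, and rose with a log2 difference of 2.85 (SE 0.42, adjusted p = 0.00382). At 8 weeks it had 3.22, 2.21 and 3.54 CPM against 1.46, 1.16 and 1.75, without overlap, and did not pass (adjusted p = 0.470). Crhr1, the CRF receptor of β cells, rose at 8 weeks, from 0.634 to 0.794 CPM in WT to 6.40 to 7.35 in βEedKO (3.19, SE 0.46, adjusted p = 0.0169). At 25 weeks it had 0.989 and 1.81 CPM in βEedKO and 1.00 to 2.40 in WT, with overlap. Its call at 8 weeks was lost without any 1 of the 3 WT libraries and without βEedKO replicate 4 or 5. Over 19 other settings of the fit it was called in 13, with adjusted p up to 0.430 and log2 differences of 3.09 to 3.41. Sst, the somatostatin gene, differed by -0.30 (adjusted p = 0.746) at 25 weeks and 0.04 (adjusted p = 0.993) at 8 weeks. Of the 12 genes of the list 8 were tested, and at 25 weeks 3 were called higher (Crhr2 and the somatostatin receptor genes Sstr1 and Sstr2) and 0 lower, with a median of 0.98. Crh, Ucn and Ucn2, the other peptides of the family, were too low to be tested.

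The relatives of Trpm5, Cib3 and Cyp4f39 gave no calls. Of 15 TRPM and taste transduction genes, 11 were tested and 0 called at either age, with medians of -0.25 at 8 and 0.34 at 25 weeks. Trpm4, the closest relative of Trpm5 and a channel of the same kind, had 27.9 ± 3.43 CPM (SD, n = 2) in βEedKO and 18.4 ± 4.45 (n = 3) in WT at 25 weeks, a log2 difference of 0.55 (adjusted p = 0.249). Trpm2, Trpm3 and Trpm7 differed by 0.34, -1.19 and -0.33. Of 7 genes of the CIB list 4 were tested and 0 called, with Cib1 at 0.16 and Cib2 at -0.59, and of the hair cell channel genes Tmc1 had 0 reads in every library and Tmc2 at most 0.0696 CPM. Of 16 genes of the CYP4F and acylceramide list 11 were tested and 0 called at either age. The nearest relatives in the cluster, Cyp4f17, Cyp4f13 and Cyp4f16, differed by -0.25, -0.13 and 0.51.

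Of 17 T-box genes, listed because of the name of T2, 10 were tested at 25 weeks. Of these, 6 were called higher and 0 lower, beside 4.58% of all genes called higher, with a median of 4.12. Tbx1, Tbx2, Tbx6 and Mga did not pass, with log2 differences of 1.44, 0.34, 0.53 and -0.13. Tbx3 rose from 3.49, 1.05 and 1.93 CPM in WT to 18.9 and 31.9 in βEedKO (3.57, SE 0.55, adjusted p = 0.00417), and Tbx15 from 0.436 to 0.541 to 12.4 to 15.1 CPM (4.68, SE 0.54, adjusted p = 0.00110). Tbx5, Tbr1, Tbx18 and Tbx20 were at or near 0 in WT and at 3.31 to 10.8 CPM in βEedKO. These genes passed the count filter only through βEedKO libraries, so the number tested and the median depend on their rise. At 8 weeks 0 of the 10 were called. HET replicate 2 at that age had Tbx5 at 1.82 CPM, Tbx15 at 3.41 and Tbx18 at 0.488, with Tbr1 and Tbx20 at 0. T itself, the gene next to T2, had at most 0.226 CPM in WT and was not tested.

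The nearest counted protein-coding gene on either side of each of the 5 was also read, leaving out Tssc4, which overlaps Trpm5. Of these 10 neighbours 6 could be tested at 25 weeks, 1 was called higher and 0 lower. Cd81, a tetraspanin gene 1.2 kb from Trpm5, had 174 and 149 CPM in βEedKO and 102, 77.5 and 67.9 in WT (0.92, SE 0.22, adjusted p = 0.0337). It was called under 8 of 19 other settings, with adjusted p up to 0.269. Akr1c14, 103.7 kb from Ucn3, had 12.2 and 19.8 CPM against 69.1, 50.1 and 44.8, a log2 difference of -1.82 (SE 0.51, adjusted p = 0.0615). It was called lower under 7 of 19 other settings, over which adjusted p ran from 0.00146 to 0.321. Cyp4f17, 12.7 kb from Cyp4f39, had 6.84 and 7.38 CPM against 5.23 to 10.2. Tubal3 (4.5, adjusted p = 0.429), Kcnq1 (1.48, adjusted p = 0.300) and Hsh2d (0.99, adjusted p = 0.720) were not called. Prr18, T, Pglyrp2 and Gm11034 were too low to be tested.

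Across all 16 libraries the 5 genes varied together, which their choice for the same fall sets in part. Pearson's r of log2 CPM between pairs of the 5 ran from 0.855 to 0.987. Over the 14 libraries other than βEedKO at 25 weeks it ran from 0.720 (Cib3 and Cyp4f39) to 0.932 (Trpm5 and Cib3), and over deviations from the group means from 0.011 (Cib3 and Cyp4f39) to 0.794 (Ucn3 and T2). These correlations share libraries, depth and the interferon level, and are descriptions. Among 12970 genes, those most like Ucn3 over 16 libraries were Slc30a8 (r = 0.987), Trpm5 and Cib3, and over the 14 libraries Ubxn10 (0.956), Glt1d1 and the glucose transporter gene Slc2a2 (0.953). Trpm5 was most like Cib3 (0.987), T2 and Frzb over 16, and like Frzb (0.959), Gusb and Cib3 over 14. Cib3 was most like Trpm5, Fkbp1b (0.983) and Ucn3, and over 14 like Slco1a6 (0.947), Trpm5 and Ica1l. T2 was most like Ociad2 (0.991), Trpm5 and Frzb, and over 14 like Ociad2 (0.949), Gstt1 and Pigh. Cyp4f39 was most like Klhl32 (0.979), Grk5 and Gpr137b-ps, and over 14 like Ints6l (0.975), Cntrl and Dcaf8, so that no other gene of the 5 was among its nearest.

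The total count per library ran from 4645393 to 22925359. Eed was at 13.4 to 15.6 CPM in βEedKO, 16.3 to 20.5 in HET and 19.2 to 33.1 in WT. It did not pass the test in βEedKO against WT at 8 weeks (-1.04, adjusted p = 0.0881) or 25 weeks (-0.69, adjusted p = 0.142), and whole islets include cells that keep Eed.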

How the data were processed

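Whole-islet RNA-seq of 16 libraries in 6 groups was analysed from raw counts of reads per gene, which the authors deposited after TopHat2 (2.0.13) alignment to GRCm38 and featureCounts (Subread 1.5.0-p1) on Gencode gene models, versions as in the submitters' processing notes and the study's methods. The strand setting is not given in the sources used here. Symbols and gene models came from a later Gencode release, in which 47224 of 47937 identifiers matched. The state map was deposited by the authors as state letters. A list of single-cell barcodes was not used, and single-cell, human and ChIP-seq data were not analysed here, and 0 sample columns were left unmapped. The columns were taken from the labels.

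Counts were filtered with filterByExpr, scaled with TMM and fitted with edgeR 4.0.16 (R 4.3.3), quasi-likelihood test, with Benjamini-Hochberg adjustment over all genes tested at a threshold of 0.05. Comparisons of βEedKO with WT used 11 libraries in 4 groups, and those with HET all 16. The SE is the log2 difference over the root of F. P-values rest on the spread between these libraries, some of them pools of animals, with the estimate of spread shared over the groups of a fit. The scripts were tested on simulated data. The 5 genes, gene lists and tests were chosen with earlier results of these data known. Named are the 5 genes, called genes and nearest relatives of the lists, neighbours, Eed, and the 3 genes of highest correlation among those with at least 5 CPM in a group. Other genes named with values were chosen after their values were seen. Alternatives were other scaling, no filter, a replicate block, pooled controls, DESeq2 1.42.0 and leaving out each library. Scaling to pan-endocrine counts, an interferon term and leaving out replicate 1 of both groups were added after seeing the data.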

Additional observations from a re-analysis of the deposited data

How the results depend on the processing

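Of the values of the 5 genes under the alternatives, 853 were unchanged, 33 lost a call, 7 gained one and 11 changed sign. Another 16, all untested, moved by more than the spread between libraries. Unchanged means the same direction and side of the threshold for tested values, called or not, and a move within that spread for untested ones. The number of the 5 called lower in βEedKO against WT at 8 weeks was 0, and 2 with HET pooled with WT. Against HET it was 3, and 0 with library size alone, 0 with the replicate block, 0 with the block and library size alone, 1 with the interferon term and 0 to 5 with 1 library left out. The median at 25 weeks was -5.59 against WT (-6.15 to -5.38 with 1 library left out) and -5.44 against HET (-5.87 to -5.37). List genes called at 25 weeks numbered 24, and 9 to 24 with 1 library left out. At 8 weeks 1 was called, and 0 with the replicate block, 2 with the block and library size alone, 3 with pooled controls, 3 with DESeq2, 0 without replicate 1 of both groups, 2 with the interferon term and 0 to 1 with 1 library left out. Of the neighbours 1 was called, and 2 with all 6 groups in 1 fit, 0 with library size alone, 2 with the block, 2 with the block and library size alone, 2 with pooled controls, 2 with DESeq2, 0 with pan-endocrine scaling and 0 to 2 with 1 library left out. With every annotated start, 4 genes in place of 2 had an active start state. The cause of these shifts was not tested.

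Signs changed only among differences that were not called. HET against WT at 8 weeks came to -0.05 for Trpm5, -0.04 for Cib3 and -0.44 for T2 with the interferon term. For Cib3 it was -0.03 without WT replicate 4 and -0.01 without HET replicate 3, and for T2 -0.07 and -0.05 without WT replicates 3 and 4. HET at 25 against 8 weeks came to -0.18 for Ucn3, -0.09 for Trpm5 and -0.07 for Cib3 without HET replicate 2 at 25 weeks, and -0.03 for Trpm5 without HET replicate 2 at 8 weeks. With 1 library left out the values ran up to 0.17 for Cib3 and 0.49 for T2 in HET against WT, and up to 0.25 for Ucn3, 0.23 for Trpm5 and 0.78 for Cib3 in HET between the ages. Library size alone shifted the median of all genes by 0.20 at 8 weeks and 0.26 at 25 weeks (log2).

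The labels do not say that replicate numbers pair libraries. Deviations from group means correlated at -0.015 to 0.457 over 9 same-numbered pairs (median 0.161) and at -0.528 to 0.450 over 34 others (median -0.018). The 4 pairs of WT with βEedKO, 2 at each age, were at 0.163 to 0.457. The highest was replicate 1 at 8 weeks, where both libraries had low interferon-induced genes. With 2 βEedKO libraries at 25 weeks, same- and different-numbered values mirror each other by arithmetic, as 0.176 and -0.176 for WT replicate 2. No paired analysis was possible because the block is made of age and replicate number, for the differences between 8 and 25 weeks, which then cannot be told apart from it. A leave-one-out fit with 1 library in a group takes its spread from the other groups. Cib3 and Cyp4f39 had 2 to 9 reads per βEedKO library at 25 weeks, which limits their folds there.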
